A study of Mus musculus with 25 samples.

Results

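TGF-beta signalling was described here through 10 genes: the ligand genes Tgfb1 and Tgfb3, the receptor genes Tgfbr1 and Tgfbr2, the Smad genes Smad2, Smad3, Smad4 and Smad7, and the corepressor genes Ski and Skil. They were picked by name from the 23366 gene symbols of the deposited table, and all 10 were in it; earlier results of these libraries were known when the list was made. They were followed in bulk RNA sequencing libraries of CD8+ T cells from B16F10 tumours, a transplanted mouse melanoma, grown in C57BL/6 mice. The groups were Prdm1/c-Maf cDKO, labelled as a knockout of both Prdm1 and c-Maf (3 libraries), Prdm1 cKO (3 libraries), c-Maf cKO (3 libraries) and wild type (16 libraries). A cKO is a conditional knockout and a cDKO a conditional double knockout. The sources used here do not give the driver of the deletion, the sex and age of the mice or any pooling of animals. Because the labels do not say that libraries of a group came from separate mice, p-values measure only the spread between libraries. Blimp-1, the product of Prdm1, silences target genes in plasma cells and effector T cells; c-Maf, the product of Maf, is a DNA-binding factor of the AP-1 superfamily.

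In this pathway a secreted TGF-beta dimer binds the type II receptor (Tgfbr2), which recruits and phosphorylates the type I receptor (Tgfbr1). The type I receptor phosphorylates Smad2 and Smad3, which join Smad4 and act on target genes in the nucleus. Smad7 blocks the active receptor, and Ski and SnoN (the product of Skil) hold Smad complexes in a repressive state. In T cells the pathway is known for restraining cytotoxic effector genes and for raising the integrin CD103, encoded by Itgae, which helps T cells stay in tissue.

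Of the 10 genes, Tgfbr2 was higher in Prdm1/c-Maf cDKO than in wild type, Ski was higher in Prdm1 cKO than in wild type, and none was called in c-Maf cKO. Smad4 was higher in cDKO than in c-Maf cKO. These are calls at an adjusted p under 0.05 (limma on log2(value + 1), Benjamini-Hochberg over the 12251 genes tested). The deposited values are a normalised signal with no stated unit, and low values scaled with transcript length, so levels of different genes are compared here on the deposited, length-scaled scale. Fold changes are log2 differences of (value + 1) with their standard error (SE), and understate changes of low genes.

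Column totals were 389650 to 475956 and genes above 0 numbered 12749 to 15161 per library; the sequencing depth is unknown. Prdm1 averaged 3.05 ± 1.77 in cDKO and 2.93 ± 2.24 in Prdm1 cKO, against 15.5 ± 5.31 in wild type (SD, n = 3, 3 and 16; exact two-sided permutation p = 0.00103 for both, the smallest the 969 splits allow). Maf was near 0 in every group. The library labelled c-Maf cKO C1 had 0.93, and A1 and A2 of cDKO had 0.18 and 0.03, all within the wild-type range of 0.03 to 0.95. Against all wild-type libraries the exact permutation p of Maf was 0.0289 for cDKO and 0.367 for c-Maf cKO. Maf averaged 0.31 ± 0.537 in c-Maf cKO and 0.2475 ± 0.229 in the 4 wild-type columns that precede it (SD, n = 3 and 4, exact permutation p = 0.914). In the table each knockout group is preceded by wild-type columns, which gives 3 column sets, a candidate batch known from column order alone: 3 Prdm1 cKO with 7 wild-type libraries, 3 c-Maf cKO with 4, and 3 cDKO with 5. Among the wild-type libraries alone, 337 of 12251 genes (2.75%) differed between the 3 sets. None of the 10 genes did. Their lowest adjusted p was 0.233, for Tgfbr1, which averaged 3.31, 1.72 and 3.22 in sets 1, 2 and 3.

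Of the genes called against wild type, both Tgfbr2 and Ski had a promoter in the RefSeq table (GRCm38.p6, a later build than the mm9 named for the deposited values). The 250 bases before the start of each are shown because Blimp-1 and c-Maf act at DNA. Capitals mark GAAAGTG, core letters of the Blimp-1 motif, on either strand. The Tgfbr2 window is chr9:116175364-116175613 and the Ski window chr4:155222536-155222785, both on the minus strand.
Tgfbr2: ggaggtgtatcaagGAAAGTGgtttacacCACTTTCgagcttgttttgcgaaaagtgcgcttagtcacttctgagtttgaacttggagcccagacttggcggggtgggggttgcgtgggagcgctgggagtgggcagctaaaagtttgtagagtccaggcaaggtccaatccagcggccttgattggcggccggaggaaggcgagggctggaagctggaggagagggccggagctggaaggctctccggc
Ski: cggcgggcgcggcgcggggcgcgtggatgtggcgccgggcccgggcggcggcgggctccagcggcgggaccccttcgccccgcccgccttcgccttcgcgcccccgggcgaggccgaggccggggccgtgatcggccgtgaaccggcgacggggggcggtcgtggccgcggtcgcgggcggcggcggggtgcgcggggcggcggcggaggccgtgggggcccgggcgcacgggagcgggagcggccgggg
The Tgfbr2 window holds GAAAGTG at 2 places, 230 to 236 bases before the start on the gene's strand and 215 to 221 bases before it on the other strand, and 1 match to the Smad letters CAGAC. Of 32851 promoter windows of the same length, 4.01% hold GAAAGTG, 44 windows (0.134%) hold it at least 2 times, and 42.2% hold CAGAC. The Ski window, with 87.6% of its bases G or C, holds none of these motifs. It also lacks the shorter run GAAAG, which is part of the Blimp-1 letters above and lies in 51.5% of windows. Letters of the c-Maf half-site, TGCTGA, lie in 16.1% of windows and in neither of the printed ones. Both strands were searched, and the motifs were chosen after the sequences had been read. Of the 10 genes, 5 matched the promoter table, with 6 windows. A match is a description of letters and not a measured binding site.

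In wild-type cells the type II receptor gene stood far above the other genes of the group. Tgfbr2 averaged 63.0 ± 8.42 (SD, n = 16), at the 92.6th percentile of the genes tested, and was higher than Skil, the next gene, in 16 of 16 libraries. Skil (13.4 ± 2.71), Smad3 (11.1 ± 4.58), Smad7 (8.34 ± 2.13) and Tgfb1 (7.34 ± 2.82) followed. Ski averaged 6.50 ± 1.51, Smad2 5.18 ± 1.02, Smad4 3.97 ± 1.5 and Tgfbr1 2.88 ± 1.31. Neighbours between Skil and Smad4 in this order were not separated: the gene with the higher mean was the higher one in 8 to 12 of 16 libraries. Smad4 exceeded Tgfbr1 in 14 of 16 and Tgfbr1 exceeded Tgfb3 in 16 of 16. Tgfb3 was at the low end of the table with 0.489 ± 0.429, the 4.24th percentile. Tgfbr2 was also among the least variable genes between wild-type libraries, with a coefficient of variation of 13.4% (4.08th percentile), against 87.7% for Tgfb3 and a median of 32.8% over all genes tested.

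**Figure D1:**
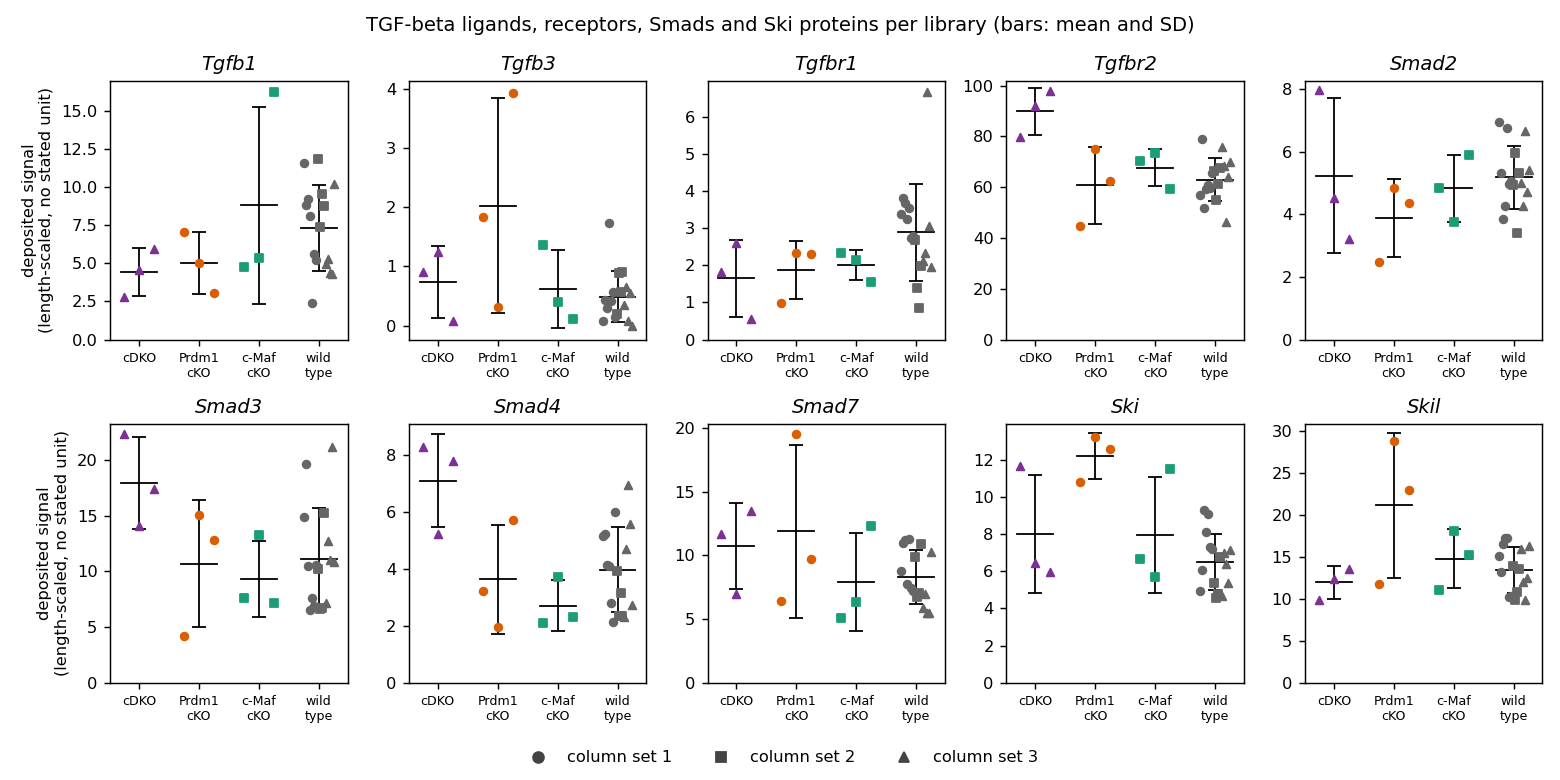
Deposited signal (y axis, no stated unit) of the 10 genes in each library, by genotype (x axis), with bars for the mean and SD and marker shapes for the 3 column sets. The 3 cDKO libraries lie above every wild-type library for Tgfbr2, and the 3 Prdm1 cKO libraries do so for Ski.

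Ligands. Neither ligand gene passed the test in any knockout group. Tgfb1, the main TGF-beta ligand of immune cells, had 2.78, 4.58 and 5.94 in cDKO, 7.05, 5.00 and 3.02 in Prdm1 cKO libraries and 4.77, 5.36 and 16.26 in c-Maf cKO, against a lowest, median and highest of 2.41, 7.725 and 11.81 in wild type. All groups overlapped wild type, and 1 library, C1 of c-Maf cKO, was above the wild-type range. That library also had a high summed signal of macrophage and monocyte markers, 1089, against 107 and 249 in the other c-Maf cKO libraries; the part of those transcripts in its Tgfb1 value was not tested. The log2 differences from wild type were -0.57 ± 0.34 in cDKO (adjusted p = 0.306), -0.44 ± 0.34 in Prdm1 cKO (adjusted p = 0.492) and 0.13 ± 0.34 in c-Maf cKO (adjusted p = 0.944).

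Tgfb3, a second ligand isoform, had 0.90, 1.24 and 0.07 in cDKO, 1.84, 0.31 and 3.94 in Prdm1 cKO libraries and 1.37, 0.39 and 0.11 in c-Maf cKO, against 0, 0.42 and 1.73 (lowest, median and highest) in wild type. In Prdm1 cKO A5 and A9 were above every wild-type library and A6 was below the wild-type median. The log2 difference of Prdm1 cKO from wild type was 0.87 ± 0.31 (95% interval 0.24 to 1.51, adjusted p = 0.104). It passed the threshold with a pseudocount of 10 (adjusted p = 0.0487), with libraries rescaled to the CD3 genes (0.0455) and without A6 (0.0424). A9, the highest library, also had the highest macrophage marker sum of all 25, 3333. In cDKO the difference was 0.20 ± 0.31 (adjusted p = 0.758) and in c-Maf cKO 0.10 ± 0.31 (adjusted p = 0.955).

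Receptors. In cDKO the 2 receptor genes had differences of opposite sign from wild type. Tgfbr2, the ligand-binding type II receptor, was the 1 gene of 10 called in cDKO, and Tgfbr1, its signalling partner, had a negative difference that did not pass. Tgfbr2 had 79.81, 91.87 and 97.99 in cDKO, 44.91, 75.06 and 62.29 in Prdm1 cKO libraries and 70.45, 73.34 and 59.38 in c-Maf cKO, against 46.48, 62.56 and 78.87 (lowest, median and highest) in wild type. Every cDKO library was above every wild-type library, while both single knockouts overlapped wild type. The mean of cDKO was 89.9 ± 9.25 and that of wild type 63.0 ± 8.42 (SD, n = 3 and 16), a log2 difference of 0.51 ± 0.14 (95% interval 0.23 to 0.80, adjusted p = 0.0165). An exact two-sided permutation test gave p = 0.00103 over 969 splits against all wild-type libraries and p = 0.0357 over 56 splits against the 5 of its own column set, which averaged 64.9 ± 11.2. In cDKO against wild type 11.9% of all genes tested were called, so 1 of 10 was no more than the background share.

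The Tgfbr2 call held in 31 of 34 alternatives. It ended with the column set as covariate (log2 difference 0.48, adjusted p = 0.0756), without A1 (0.0843) and without A2 (0.14). Rescaled to the CD3 genes, which moved the median of all genes tested to 0.31, the difference was 0.94. Red blood cell transcripts were also high in cDKO: 5 erythroid genes summed to 461, 2269 and 4236, and 3 of the 5 were called higher. The lowest, median and highest sum in wild type were 1.38, 180 and 1567. In Prdm1 cKO the sums were 221, 1073 and 1840, with 0 of the 5 called. Of other markers in cDKO, Pecam1 of endothelium (1.08 ± 0.28, adjusted p = 0.012) and Cd79b of B cells (1.10 ± 0.36, adjusted p = 0.0455) were called higher. Zbtb46 of dendritic cells (-1.23 ± 0.31, adjusted p = 0.00883) and the T cell gene Cd3g (-0.90 ± 0.29, adjusted p = 0.0399) were called lower. The part of these transcripts in the Tgfbr2 result was not tested. In bulk libraries fewer cells of a type and less RNA per cell cannot be told apart.

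Tgfbr1 had 1.83, 2.59 and 0.54 in cDKO, 0.98, 2.34 and 2.30 in Prdm1 cKO libraries and 2.33, 2.14 and 1.56 in c-Maf cKO, against 0.84, 2.755 and 6.65 (lowest, median and highest) in wild type. Every group overlapped the 16 wild-type libraries, and all 9 knockout libraries were below the wild-type median. Within its own column set, Prdm1 cKO was below every wild-type library, with 1.87 ± 0.774 against 3.31 ± 0.422 and a wild-type range of 2.72 to 3.81 (SD, n = 3 and 7; exact two-sided permutation p = 0.00833, the smallest that 120 splits allow, not adjusted for the number of genes). With the column set as covariate the log2 difference of Prdm1 cKO was -0.62 and did not pass by limma. In their own column sets cDKO (exact permutation p = 0.214, n = 3 and 5) and c-Maf cKO (exact permutation p = 0.543, n = 3 and 4) overlapped wild type. The log2 differences were -0.56 ± 0.29 in cDKO (adjusted p = 0.24), -0.40 ± 0.29 in Prdm1 cKO (adjusted p = 0.466) and -0.31 ± 0.29 in c-Maf cKO (adjusted p = 0.861). The ratio of Tgfbr2 to Tgfbr1 signal was 35.5, 43.6 and 181 in cDKO, 27.1 to 45.8 in Prdm1 cKO libraries and 30.2 to 38.1 in c-Maf cKO, against a median of 22.7 and a range of 6.99 to 72.9 in wild type. The value of 181 was that of A2, which had both the highest Tgfbr2 and the lowest Tgfbr1 of all 25 libraries.

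**Figure D2:**
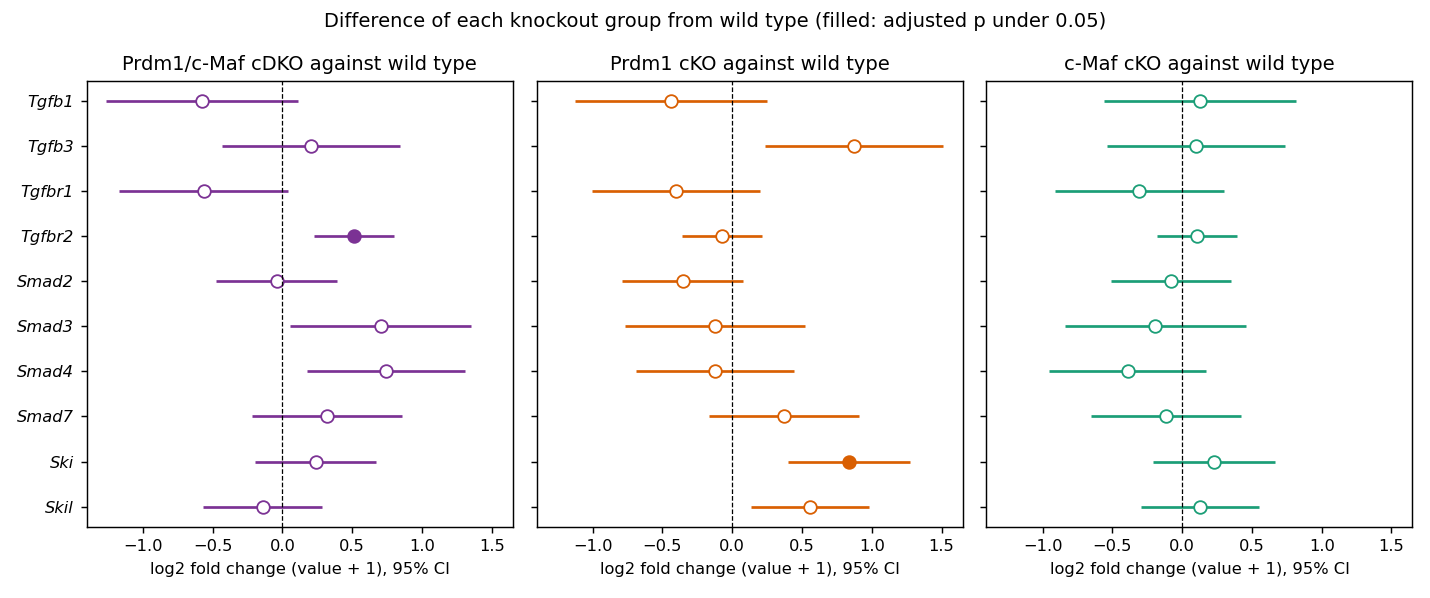
Log2 fold change of (value + 1) with its 95% confidence interval (x axis) for the 10 genes (y axis), each knockout group against wild type, with filled points for calls. Tgfbr2 in cDKO (0.51) and Ski in Prdm1 cKO (0.84) are the filled points.

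Smads. None of Smad2, Smad3, Smad4 and Smad7 was called against wild type in any knockout group. Of these, Smad4, the shared partner of all receptor-activated Smads, came nearest, in cDKO. Smad1, which is not one of the 10 genes, is given with the other pathway genes below. It had 8.26, 5.22 and 7.77 in cDKO, 3.20, 1.97 and 5.70 in Prdm1 cKO libraries and 2.08, 3.72 and 2.30 in c-Maf cKO, against 2.13, 4.01 and 6.92 (lowest, median and highest) in wild type. Of the 3 cDKO libraries, 2 were above the wild-type range and A1 was within it. The log2 difference of cDKO from wild type was 0.74 ± 0.27 (95% interval 0.18 to 1.31, adjusted p = 0.0784). It was called with a pseudocount of 10 (adjusted p = 0.0459) and without the wild-type library B3 (0.0455). Smad4 differed by -0.12 ± 0.27 in Prdm1 cKO (adjusted p = 0.846) and by -0.39 ± 0.27 in c-Maf cKO (adjusted p = 0.82).

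Smad3, a receptor-activated Smad that binds DNA directly, had 22.30, 14.04 and 17.42 in cDKO, 4.22, 15.06 and 12.77 in Prdm1 cKO libraries and 7.61, 13.26 and 7.16 in c-Maf cKO, against 6.56, 10.52 and 21.12 (lowest, median and highest) in wild type. All 3 cDKO libraries were above the wild-type median, and only C2 was above the range. The log2 difference of cDKO from wild type was 0.70 ± 0.32 (95% interval 0.06 to 1.35, adjusted p = 0.156), and those of Prdm1 cKO and c-Maf cKO were -0.12 ± 0.32 (adjusted p = 0.867) and -0.19 ± 0.32 (adjusted p = 0.909). Smad2, its paralog, had 7.99, 4.51 and 3.21 in cDKO, 2.48, 4.83 and 4.35 in Prdm1 cKO libraries and 4.86, 3.76 and 5.89 in c-Maf cKO, against 3.42, 5.035 and 6.97 (lowest, median and highest) in wild type. Its cDKO libraries lay on both sides of the wild-type range, with C2 above and A2 below it, and the log2 difference was -0.04 ± 0.21 (adjusted p = 0.937). Prdm1 cKO differed from wild type by -0.36 ± 0.21 (adjusted p = 0.347) and c-Maf cKO by -0.08 ± 0.21 (adjusted p = 0.944).

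Smad7, the inhibitory Smad that TGF-beta itself induces, had 11.72, 6.96 and 13.48 in cDKO, 6.45, 19.54 and 9.74 in Prdm1 cKO libraries and 5.12, 6.31 and 12.33 in c-Maf cKO, against 5.49, 7.615 and 11.29 (lowest, median and highest) in wild type. Of the knockout libraries 2 of cDKO, 1 of Prdm1 cKO and 1 of c-Maf cKO were above the wild-type range, and 1 of c-Maf cKO, B10, was below it. Its log2 differences were 0.32 ± 0.26 in cDKO (adjusted p = 0.509), 0.37 ± 0.26 in Prdm1 cKO (adjusted p = 0.445) and -0.11 ± 0.26 in c-Maf cKO (adjusted p = 0.935).

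Corepressors. Ski was the 1 gene of 10 called in Prdm1 cKO, and Skil had a positive difference there that did not pass. Ski had 11.68, 6.42 and 5.96 in cDKO, 10.79, 13.24 and 12.55 in Prdm1 cKO libraries and 6.66, 5.70 and 11.51 in c-Maf cKO, against 4.55, 6.575 and 9.28 (lowest, median and highest) in wild type. The 3 Prdm1 cKO libraries were above every wild-type library; of cDKO and c-Maf cKO 1 library each (C2 and C1) was above the wild-type range. The means were 12.2 ± 1.26 in Prdm1 cKO and 6.50 ± 1.51 in wild type (SD, n = 3 and 16), a log2 difference of 0.84 ± 0.21 (95% interval 0.40 to 1.27, adjusted p = 0.0278). An exact two-sided permutation test gave p = 0.00103 over 969 splits, and p = 0.00833 over 120 splits against 7 wild-type libraries of its own column set, which averaged 7.43 ± 1.56 (the smallest p that either set of splits allows). In Prdm1 cKO against wild type 3.45% of all genes tested were called. The log2 difference of Ski from wild type was 0.24 ± 0.21 in cDKO (adjusted p = 0.548) and 0.23 ± 0.21 in c-Maf cKO (adjusted p = 0.858).

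The Ski call held in 30 of 34 alternatives, with the direction kept in all of them. It ended with the column set as covariate (log2 difference 0.67, adjusted p = 0.161), with the macrophage marker score as covariate (0.54, adjusted p = 0.405), without A6 (adjusted p = 0.131) and without A9 (adjusted p = 0.136). The 13 macrophage and monocyte markers in the table summed to 1161, 1299 and 3333 in Prdm1 cKO, against a lowest, median and highest of 24.1, 264 and 1794 in wild type. Of the 13, 1 (Emr1) was called higher, the median log2 difference of the list was 2.72, and none was at 0 in all Prdm1 cKO libraries. The c-Maf cKO library with high Ski, C1, had a macrophage sum of 1089, and the cDKO library with high Ski, C2, had 248. In the wild-type library with the highest sum, A7 with 1794, Ski was 9.28, the top of the wild-type range.

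Skil had 9.84, 12.41 and 13.60 in cDKO, 11.73, 28.75 and 22.96 in Prdm1 cKO libraries and 11.05, 18.06 and 15.16 in c-Maf cKO, against 9.89, 13.355 and 17.29 (lowest, median and highest) in wild type. A6 and A9 of Prdm1 cKO were above the wild-type range and A5 was below the wild-type median. The log2 difference of Prdm1 cKO from wild type was 0.56 ± 0.21 (95% interval 0.13 to 0.98, adjusted p = 0.117). Without A5 it was 0.91 (adjusted p = 0.0173), and that 1 library decides the call. In cDKO the difference was -0.14 ± 0.21 (adjusted p = 0.745) and in c-Maf cKO 0.13 ± 0.21 (adjusted p = 0.909).

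**Figure D3:**
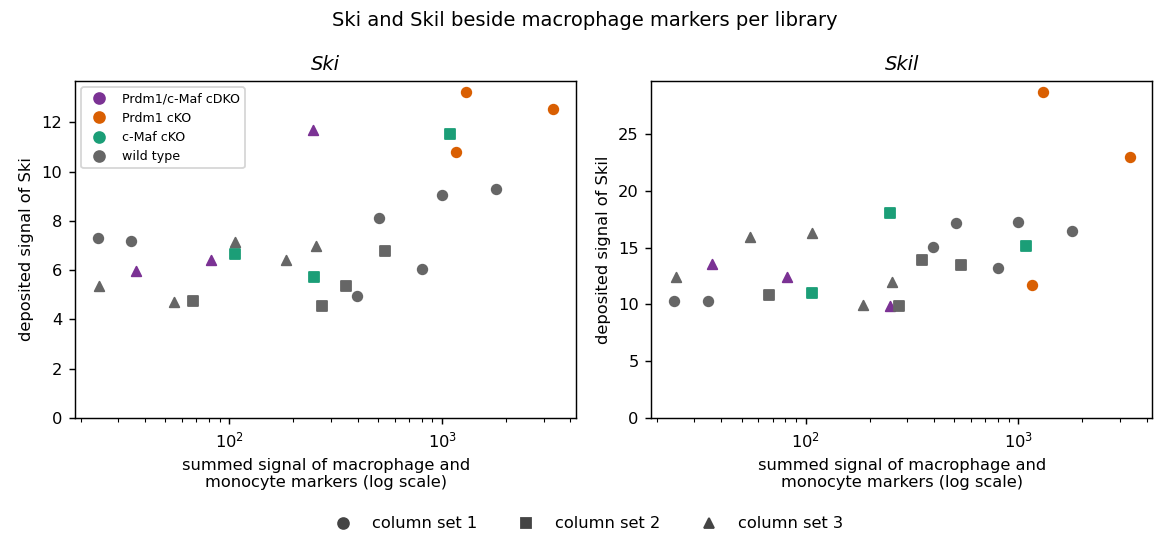
Deposited signal of Ski and Skil (y axes) against the summed signal of 13 macrophage and monocyte markers (x axes, log scale), 1 point per library, coloured by genotype with shapes for the column sets. The Prdm1 cKO libraries, at marker sums of 1161 to 3333, have Ski at 10.79 to 13.24, and wild-type libraries reach 9.28.

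The libraries with extreme values recurred across genes. Of all 25 libraries, Prdm1 cKO A6 had the highest Smad7, Ski and Skil and the lowest Smad4. Prdm1 cKO A5, of the same genotype, had the lowest Tgfbr2, Smad2 and Smad3. C2 of cDKO had the highest Smad2, Smad3 and Smad4 and the lowest Skil. Among the 16 wild-type libraries, B3 had the highest Tgfbr1 and A10 the lowest Tgfb1.

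**Figure D4:**
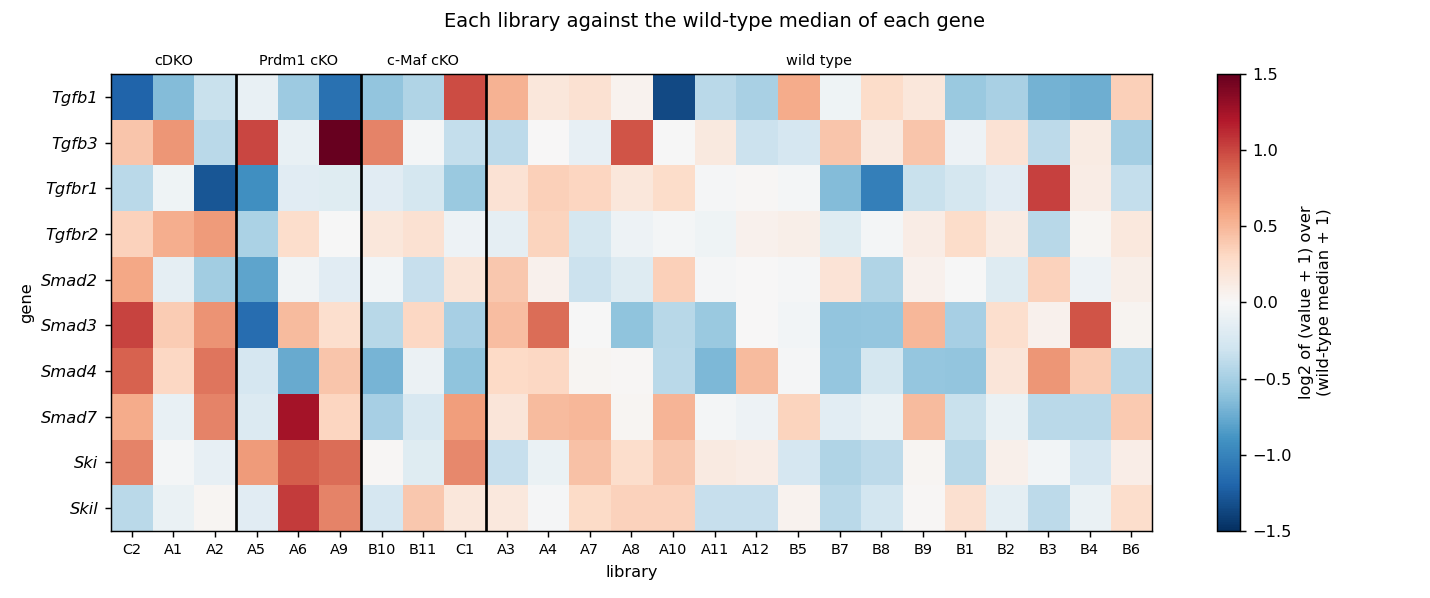
Log2 of (value + 1) over (wild-type median + 1) for each gene (rows) and library (columns, by genotype), on a colour scale that ends at 1.5. Tgfbr2 is above the wild-type median in the 3 cDKO libraries and Ski in the 3 Prdm1 cKO libraries; Tgfb3 in A9 lies past the end of the scale.

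In the libraries labelled c-Maf cKO none of the 10 genes passed the threshold against wild type. Maf was near 0 in every group, so its loss cannot be read from these values. Their log2 differences from wild type ran from -0.39 for Smad4 to 0.23 for Ski, with adjusted p-values of 0.82 to 0.955 (limma), and none had an unadjusted p under 0.05. Over all genes tested 0 of 12251 (0%) were called, 755 had an unadjusted p under 0.05, and limma without the trend and robust options called 4. The 95% intervals do not exclude moderate changes: that of Tgfbr2 ran from -0.18 to 0.40 and that of Smad4 from -0.95 to 0.17. C1, whose Maf value lay within the wild-type range, was the c-Maf cKO library with the highest Tgfb1, Smad7 and Ski.

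Set against the single knockouts, cDKO differed in 1 of the 10 genes. Smad4 was higher in cDKO (7.08 ± 1.63) than in c-Maf cKO (2.70 ± 0.89; SD, n = 3 each), with a log2 difference of 1.13 ± 0.36 (95% interval 0.40 to 1.86, limma adjusted p = 0.0437), and the 3 values of cDKO were all above the 3 of c-Maf cKO. In this comparison 9.39% of genes tested were called. The call held in 25 of 33 alternatives. It ended without a filter on low values (adjusted p = 0.074), with the column set as covariate (log2 difference 0.73, adjusted p = 0.558), with the macrophage score as covariate (0.0521) and without C2 (0.104), A1 (0.0532), A2 (0.147), B10 (0.139) or C1 (0.117). Tgfbr2 was 0.40 ± 0.18 higher in cDKO than in c-Maf cKO (adjusted p = 0.17) and passed when rescaled to the CD3 genes (1.05, adjusted p = 0.0287).

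Against Prdm1 cKO, cDKO had a Tgfbr2 log2 difference of 0.58 ± 0.18 (95% interval 0.21 to 0.96, adjusted p = 0.141) and a Smad4 difference of 0.87 ± 0.36 (adjusted p = 0.294). Ski and Skil had negative differences, -0.60 ± 0.28 (adjusted p = 0.359) and -0.70 ± 0.27 (adjusted p = 0.244). All 4 had an unadjusted p under 0.05, as did 1544 of all 12251 genes tested. None of the 4 passed by limma after adjustment, with or without the trend and robust options, and 0.392% of genes tested were called. So the rise of Ski against wild type was called in Prdm1 cKO and not in cDKO, while the direct difference between cDKO and Prdm1 cKO did not pass. Between Prdm1 cKO and c-Maf cKO, where 1.53% of genes tested were called, Ski had the lowest adjusted p of the 10, with a log2 difference of 0.61 ± 0.28 (adjusted p = 0.208).

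The departure from additivity sets the cDKO difference against the sum of the single differences. Smad4 had the largest, 1.25 ± 0.45 (95% interval 0.33 to 2.18, adjusted p = 0.266), with Smad3 at 1.02 ± 0.52 (adjusted p = 0.455) and Tgfbr2 at 0.47 ± 0.23 (adjusted p = 0.42). Ski and Skil were both at -0.83, with SEs of 0.35 and 0.34 and adjusted p-values of 0.336 and 0.328. By limma 4 of the 10 had an unadjusted p under 0.05, as did 1436 of all 12251 genes tested. None of the 10 passed after adjustment, and 1 gene of all tested (0.00816%) was called. All these comparisons share libraries, so their values for a gene are not independent of each other.

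Over the 10 genes the median log2 difference from wild type was 0.22 in cDKO, -0.10 in Prdm1 cKO libraries and 0.01 in c-Maf cKO, beside -0.03, -0.02 and 0.00 over all genes tested.

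Other genes of the pathway numbered 61 in the list used, of which 43 were tested. In cDKO against wild type 3 were called higher and 1 lower, no more than the 11.9% called over all genes, so the count says nothing particular of the pathway. Tgfbr3, the co-receptor betaglycan, had 2.82, 3.13 and 4.78 in cDKO against 0.10 to 3.24 in wild type (log2 difference 1.09 ± 0.33, adjusted p = 0.0268). That call ended with the column set as covariate (adjusted p = 0.156), with a pseudocount of 0.1 (0.0722) and without C2 (0.143), A1 (0.0817) or A2 (0.0795). Smad1, a receptor-activated Smad of the BMP branch, had 1.17, 2.46 and 3.27 in cDKO against 0 to 1 in wild type, with no overlap (1.25 ± 0.27, adjusted p = 0.00319; 0.0657 without A2). Wwp1, a ubiquitin ligase that can act with Smad7 on the receptor, had 3.16, 4.90 and 5.36 in cDKO against 1.06 to 3.18 in wild type (0.76 ± 0.24, adjusted p = 0.0382). That call ended with the column set as covariate (0.249), with the macrophage score as covariate (0.0816), with a pseudocount of 0.1 (0.0595), with no filter on low values (0.0542) and without A1 (0.168), A2 (0.246) or B7 (0.0506). Fkbp1a, whose product FKBP12 binds the type I receptor and keeps it inactive, was lower, with 73.03, 75.82 and 82.55 in cDKO against 103.56 to 174.27 in wild type (-0.73 ± 0.15, adjusted p = 0.00194). The Fkbp1a values did not overlap, but rescaled to the CD3 genes its difference was -0.30 (adjusted p = 0.468).

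In Prdm1 cKO 3 of the 43 were called higher and 0 lower, beside 3.45% called over all genes. Tgfbr3 had 2.84, 5.57 and 5.80 in Prdm1 cKO against 0.10 to 3.24 in wild type (1.40 ± 0.33, adjusted p = 0.0202). Bambi, a pseudoreceptor that dampens TGF-beta signalling, had 2.66, 3.96 and 5.59 in Prdm1 cKO against 0.68 to 2.68 in wild type (0.96 ± 0.24, adjusted p = 0.0274). Tgif1, a nuclear corepressor of Smad2 and Smad3, had 74.14, 81.00 and 116.27 in Prdm1 cKO against 29.36 to 75.38 in wild type (0.93 ± 0.19, adjusted p = 0.01). With the macrophage score as covariate the adjusted p-values of Tgfbr3, Bambi and Tgif1 were 0.131, 0.247 and 0.24, and neither that setting nor the column set left any of the 43 called. The calls also ended without A6 for all 3 (adjusted p 0.115, 0.195 and 0.109), without A5 for Tgfbr3 (0.0605), without A9 for Bambi (0.128) and with a pseudocount of 0.1 for Tgfbr3 (0.0642) and Bambi (0.0533). In c-Maf cKO 0 of 43 were called. The median log2 difference of the 43 was 0.28 in cDKO, 0.21 in Prdm1 cKO libraries and -0.09 in c-Maf cKO.

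Genes that TGF-beta is known to induce moved both ways. Of 12 listed, 10 were tested, and in cDKO 3 were called higher and 2 lower, beside 11.9% called over all genes. Itgae, encoding CD103, had 17.41, 21.16 and 41.99 in cDKO, 10.68, 15.29 and 22.32 in Prdm1 cKO libraries and 6.79, 8.30 and 14.34 in c-Maf cKO, against 1.54, 6.785 and 16.42 (lowest, median and highest) in wild type. The cDKO values were all above wild type (1.86 ± 0.39, adjusted p = 0.00267), and this call held in 34 of 34 alternatives. Ldlrad4, a membrane protein that dampens Smad activation, had 9.27, 11.13 and 12.03 in cDKO against 1.39 to 6.12 in wild type (1.40 ± 0.34, adjusted p = 0.00785). Junb, an AP-1 subunit, had 958 to 1259 in cDKO against 463 to 1029 in wild type (0.53 ± 0.15, adjusted p = 0.0164). The 2 lower genes were Itga1, the integrin chain CD49a of tissue-resident T cells, with 0.61 to 3.24 in cDKO against 2.31 to 9.16 in wild type (-1.01 ± 0.31, adjusted p = 0.0298), and Cdkn2b, a cell cycle inhibitor, with 0 to 0.17 in cDKO against 0.07 to 3.04 in wild type (-1.44 ± 0.41, adjusted p = 0.0205). Without A2 only Itgae of the list was called, and without A1 3 of the list were. The Itga1 call also ended with a pseudocount of 10 (adjusted p = 0.0689), with no filter (0.0542) and rescaled to the CD3 genes (0.155), and that of Cdkn2b with the column set as covariate (0.0607).

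In Prdm1 cKO Ldlrad4 (1.30 ± 0.34, adjusted p = 0.0334), Tgif1 and Junb (0.57 ± 0.15, adjusted p = 0.0297) of this list were called higher, and Cdkn2b, listed at 0 in all 3 libraries, was called lower (adjusted p = 0.0368). Tgif1 is also one of the other pathway genes above, so it counts in both lists. Over all genes 3.45% were called. The calls of Ldlrad4 with a pseudocount of 0.1 (adjusted p = 0.0558), of Junb without the trend and robust options (0.0549), and of Cdkn2b with a pseudocount of 10 (0.0678) or no filter (0.0513) also ended. Cdkn2b was further lost without A5 (0.0732), A11 (0.0504), B5 (0.0503) or B2 (0.0501). Without A9 1 of the list was called. None was called without A6, nor with the column set or the macrophage score as covariate. In c-Maf cKO 0 of 10 were called. Median log2 differences were 0.10 in cDKO, 0.83 in Prdm1 cKO libraries and 0.03 in c-Maf cKO.

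Of 12 genes that TGF-beta is known to restrain in T cells, all tested, 7 were lower and 2 higher in cDKO, where 11.9% of all genes were called. The 6 largest were the cytotoxic genes Gzmb (-4.51 ± 0.55), Prf1 (-3.54 ± 0.60) and Gzma (-1.75 ± 0.47), the cytokine gene Ifng (-2.22 ± 0.55), the chemokine receptor gene Cx3cr1 (-2.49 ± 0.47) and, in the other direction, S1pr1 (1.74 ± 0.34), the receptor for exit from tissue. Gzmb, Prf1, Cx3cr1 and S1pr1 were called in every alternative; without A1 or without A2, 5 of the 12 were called in place of 9. In Prdm1 cKO 4 were lower (Gzmb, Gzma, Prf1 and Fasl) and 0 higher, beside 3.45% called over all genes, and in c-Maf cKO 0 were called. With the macrophage score as covariate only Gzmb of the 4 was called, and without the cDKO library C2 the count was 7. The median log2 difference was -1.42 in cDKO, -1.29 in Prdm1 cKO libraries and -0.03 in c-Maf cKO. The pathway lists were drawn up with earlier results of these libraries in view, so these counts are a description.

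**Figure D5:**
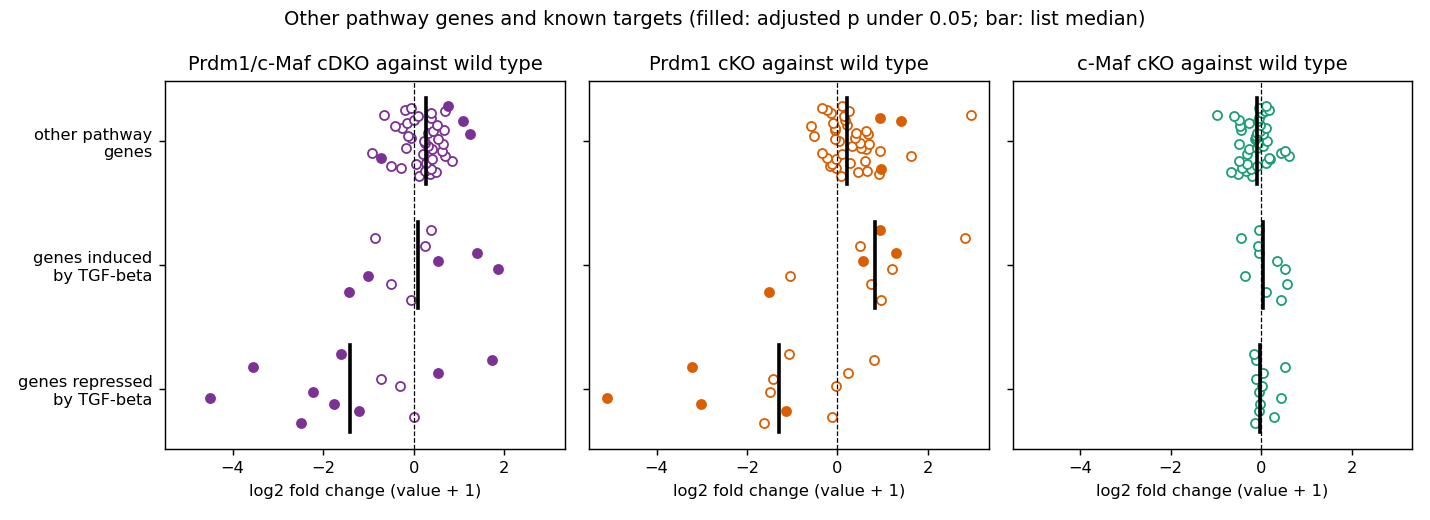
Log2 fold change of (value + 1) against wild type (x axes) for 43 other pathway genes, 10 genes induced and 12 genes repressed by TGF-beta (rows), 1 point per gene, filled for calls, with a bar at each list's median. The repressed list has medians of -1.42 in cDKO and -1.29 in Prdm1 cKO libraries and -0.03 in c-Maf cKO.

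The labelled cell type was checked by 6 CD8 T cell markers, of which Cd3g in cDKO was the 1 called in a knockout group. Their summed signal was 1120 to 2139 in cDKO (median 1346) and 1204 to 1484 in Prdm1 cKO libraries (median 1466). It was 2058 to 2267 in c-Maf cKO (median 2164) and 982 to 2754 in wild type (median 2078). Cd4 was at 0 in all 3 Prdm1 cKO libraries, in A1 and A2 of cDKO and in B11 of c-Maf cKO, and ran from 0 to 1.84 in wild type. Foxp3, the regulatory T cell marker listed with it, had 4.78, 0.67 and 0 in C2, A1 and A2 of cDKO. It had 0.08, 0.15 and 0 in A5, A6 and A9 of Prdm1 cKO and 3.10, 0 and 1.70 in B10, B11 and C1 of c-Maf cKO. In wild type Foxp3 ran from 0 to 6.72. Platelet markers, from cells rich in Tgfb1, summed to 1.37 to 1.60 in cDKO, 51.9 to 153 in Prdm1 cKO libraries and 5.04 to 61.1 in c-Maf cKO, against 0.67 to 110 in wild type. In Prdm1 cKO A5, A6 and A9 most of that sum was Pf4, with 46.32, 148.62 and 147. Ppbp had 5.43, 4.22 and 1.05 there, Gp9 0, 0 and 3.45, and Itga2b 0.11, 0.25 and 0.15. The 5 melanoma markers in the table summed to 96.5 to 1297 in cDKO, 647 to 1303 in Prdm1 cKO libraries and 12 to 562 in c-Maf cKO, against 6.67 to 3044 in wild type. The part of such transcripts in the values of Tgfb1, Tgfb3 and Smad7, genes of many cell types, was not tested.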

How the data were processed

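The authors deposited 1 table of normalised signal, with gene symbols in rows and libraries in columns and no stated unit. Per the submitters' processing notes, TopHat, RSEM and DESeq were used with build mm9; the sources used here give no versions or order of steps. Values are not counts, so no count test was run. The 10th percentile of values above 0 fell from 0.42 in the quartile of shortest transcripts to 0.06 in the longest (21732 symbols matched), and the minimum of 1 planned for length-scaled values was used.

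Columns were given a genotype from their names, and libraries are called by the code in those names. Values were fitted as log2(value + 1) with limma 3.58.1 in R 4.3.3 (trend, robust, 25 libraries in 1 fit, no covariate) for genes of at least 1 in at least 3 libraries, which all 10 genes met; Tgfb3 met it with few libraries. Scripts were tested on simulated data. The alternatives numbered 34 (pseudocount, filter, scaling, covariates, options, each library left out). The genes and lists were chosen with earlier results of these data known. All 10 genes are named; of each list at most 6 called genes per comparison, by size. Single genes were also compared by exact permutation of means of log2 values.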

Additional observations from a re-analysis of the deposited data

How the results depend on the processing

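Over the 7 comparisons the 10 genes gave 70 differences; 63 kept their side of the threshold in every alternative, 7 did not, and no called value reversed. In cDKO against wild type 1 of the 10 genes was called; the count was 2 with a pseudocount of 10, 0 with the column set as covariate, and 0 to 2 when 1 library was left out. In Prdm1 cKO against wild type (1 gene) it was 2 with a pseudocount of 10 or rescaled to the CD3 genes, 0 with the column set or the macrophage score as covariate, and 0 to 2 with 1 library left out; without A6 the count stayed at 1 but the gene was Tgfb3, not Ski. In cDKO against c-Maf cKO (1 gene) it was 2 rescaled to the CD3 genes, 0 without a filter, with a minimum of 10 in 3 libraries (which leaves Smad4 untested), and with either covariate, and 0 to 1 with 1 library left out. The other 4 comparisons gave 0 throughout. The causes were not tested.

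Over all genes, 1463 calls in cDKO against wild type became 738 without A1 and 512 without A2. In Prdm1 cKO against wild type 423 became 59 with the column set, 13 with the macrophage score, 94 without A6, 78 without A9, 661 without A4 and 684 without B3. In c-Maf cKO 0 became at most 17, with no filter. Of the comparisons between knockouts, the 48 of cDKO against Prdm1 cKO ranged from 0 to 141, the 1150 of cDKO against c-Maf cKO from 132 to 1315, and the 187 of Prdm1 cKO against c-Maf cKO from 0 to 359; the 1 departure from additivity ranged from 0 to 91. Rescaling to the CD3 genes moved the median log2 difference of all genes to 0.31 for cDKO, to 0.37 for Prdm1 cKO and to -0.18 for c-Maf cKO, so directions are relative to that shift.

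No paired analysis was possible because the table's columns carry no replicate numbers. The unknown depth and the small groups of 3 limit what can be seen.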
